A study of Caenorhabditis elegans with 14 samples.

Results

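Autophagy is the process by which a cell wraps part of its own cytoplasm, a damaged organelle or a protein aggregate in a double membrane, the autophagosome, and delivers it to the lysosome for degradation. In C. elegans the UNC-51 kinase starts the process, the VPS-34 and BEC-1 lipid kinase complex marks the growing membrane with PI3P, and lipid-linked proteins of the LGG family (the Atg8 proteins) coat it. The transcription factor HLH-30 switches on many autophagy and lysosome genes and is known for its role in fasting and in several long-lived strains.

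The mRNA of 8 such genes (lgg-1, lgg-2, bec-1, unc-51, atg-18, hlh-30, epg-5 and vps-34) was followed in whole animals of 2 sterile strains, of 41560 gene symbols measured. The genes were taken by symbol, and the FPKM (fragment counts divided by transcript length and by the number of mapped reads) of all transcripts of a gene were added. The mir-60;spe-9 strain, the double mutant, carries the mir-60(n4947) deletion of an intestinal microRNA, and its control carries spe-9(hc88) alone. Both strains therefore carry spe-9(hc88), a temperature-sensitive mutation that makes animals sterile at the 23.5 °C used throughout, and grew for 68 hours from egg to Day 0 of adulthood. The data comprised 2 mir-60;spe-9 and 2 spe-9 libraries at Day 0, 1 mir-60;spe-9 and 1 spe-9 library at Day 7, and 1 mir-60;spe-9 library at Day 10. Day 0 animals had received no paraquat, a compound that generates superoxide inside cells, whereas Day 7 and Day 10 animals had lived on 5 mM paraquat with 325 µM FUDR, an inhibitor of DNA synthesis. Age, paraquat, FUDR and the loss of animals that had already died therefore cannot be told apart in any comparison with Day 0.

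In 1 library a stretch of the genome is listed at 0 throughout, and it holds hlh-30. The mir-60;spe-9 Day 7 library was listed at 0 for all 629 genes between positions 1956725 and 4513305 of chromosome IV (WS220), although 220 of them, each at least 200 bases long, exceeded 1 FPKM in the 6 other libraries. The genes on each side were measured in that library, F52C12.2 at 27.0 FPKM and ZK185.3 at 2.47 FPKM. The 0 of hlh-30 there was taken as a missing value wherever that gene is described, and the same holds for epg-9 and ama-1.

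**Figure D1:**
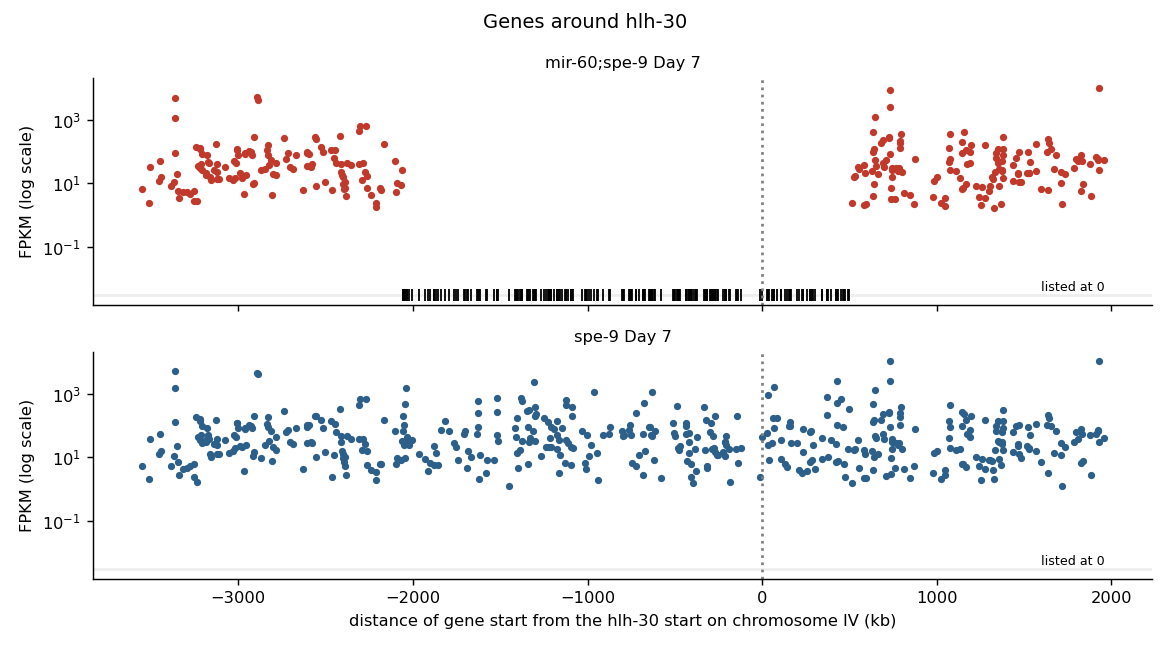
FPKM (log scale) of genes longer than 200 bases and above 1 FPKM in the other libraries against the distance of their start from that of hlh-30 on chromosome IV, in the mir-60;spe-9 Day 7 library (top) and the spe-9 Day 7 library (bottom). Black ticks are genes listed at 0, and they fill the block of 2.56 Mb around hlh-30 in the top panel. The bottom panel cannot hold such ticks, since only genes above 1 FPKM in that library are drawn.

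The precursor of mir-60 was listed at 0 in all 7 libraries of polyadenylated RNA, so these values do not check the deletion. Relative depth, read from the size of the smallest steps in the values, lay between 0.863 and 1.09 times that of the spe-9 Day 0 replicate 1 library. The make-up of the RNA moved strongly with day. The summed FPKM of 4 body wall muscle markers was 35.2 in the double mutant and 28.5 in spe-9 at Day 7, against 406 to 557 at Day 0, with 3 of the 4 below every Day 0 library. The summed FPKM of 7 germline and oocyte markers was 756 in the double mutant and 816 in spe-9 at Day 7, against 1374 to 1772 at Day 0, with 6 of the 7 below every Day 0 library. The 4 intestine markers summed to 75.5 FPKM in the double mutant and 65.4 FPKM in spe-9 at Day 7 against 108 to 153 at Day 0. The 4 neuron markers summed to 1499 FPKM in the double mutant and 1271 FPKM in spe-9 at Day 7 against 895 to 932 at Day 0, but only snb-1 of the 4 lay above every Day 0 library, and none lay below. The 3 hypodermis markers summed to 8.51 FPKM in the double mutant and 6.74 FPKM in spe-9 at Day 7 against 11.1 to 29.2 at Day 0. Of these, dpy-7 had 0 FPKM in the double mutant and 0.048 FPKM in spe-9 at Day 7, against 1.98 to 15.6 FPKM at Day 0. elt-3 had 8.49 and 6.69 FPKM in that order, inside its Day 0 range of 6.44 to 13.6 FPKM. bli-1 had 0.038 FPKM or less in every library. The 3 sperm markers summed to 12.3 FPKM in the double mutant and 9.55 FPKM in spe-9 at Day 7 against 2.57 to 7.08 at Day 0, with spe-41 the only one above every Day 0 library. The 4 embryo markers summed to 330 FPKM in the double mutant and 310 FPKM in spe-9 at Day 7 against 343 to 384 at Day 0, with pie-1 below every Day 0 library and the other 3 above. In RNA of whole animals, fewer cells of a type and less RNA per cell cannot be told apart, and the part of these shifts in the changes described here was not tested.

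At Day 7, 5 of the 7 genes with a value in both strains (bec-1, lgg-2, vps-34, lgg-1 and epg-5) were higher than at Day 0 and none was lower, with a Benjamini-Hochberg adjusted p under 0.05 in limma over 13639 genes. Across all genes tested, 33.2% were called higher and 27.5% lower, so a majority of the genes tested differed between Day 7 and Day 0. That fit kept the other genes of the block at their listed 0 values. With the block as missing, 4657 genes were called higher and 3850 lower, against 4522 and 3745. The median log2 change of the 7 genes was 0.55, beside 0.06 over all genes tested. The same 5 genes lay above all 4 Day 0 libraries in both Day 7 libraries, as did 37.2% of all genes outside the block. None of the 7 lay below them all, as did 31.1% of all genes outside the block. The fit used log2(FPKM + 0.5) with terms for strain and day, and compared 2 Day 7 libraries (1 per strain) with 4 Day 0 libraries. The study's methods describe the 2 Day 0 libraries of a strain as independent RNA preparations, while Day 7 and Day 10 have 1 library per strain.

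**Figure D2:**
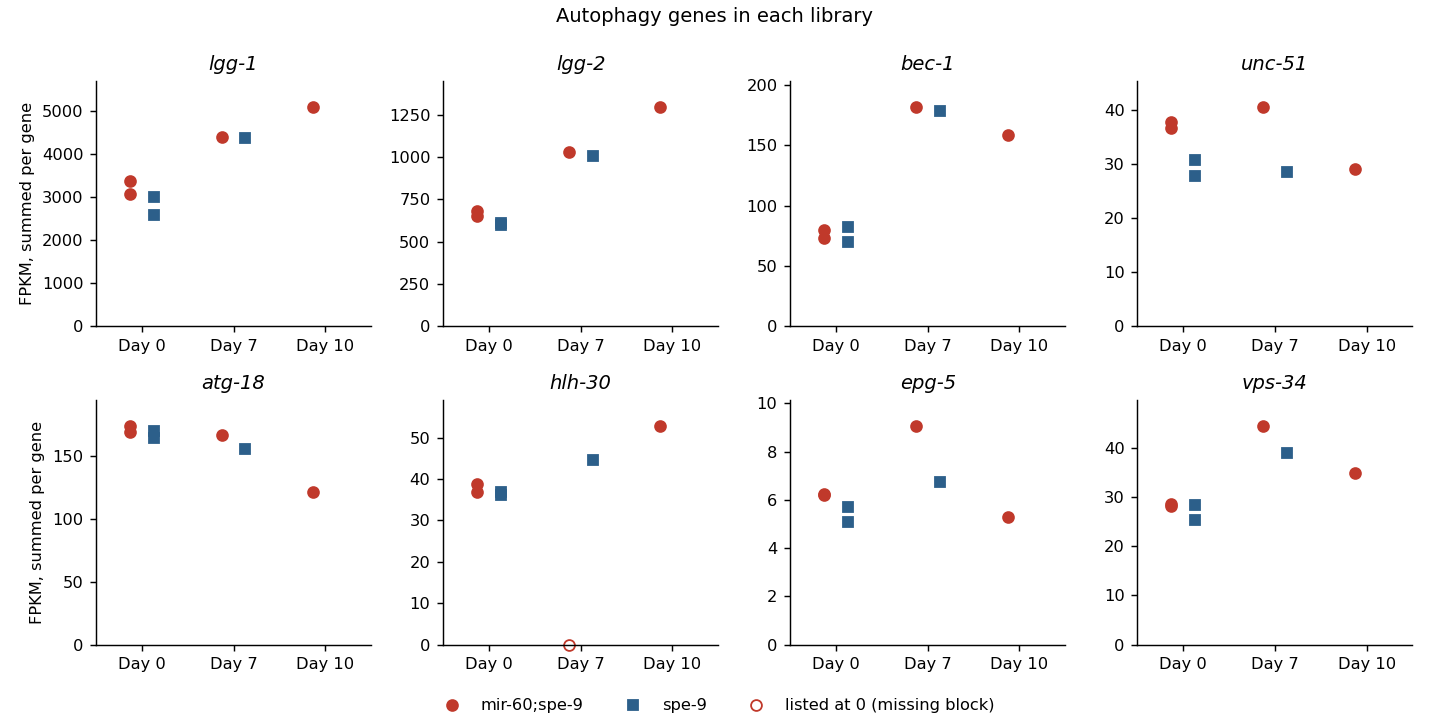
FPKM summed over the transcripts of each gene, by day, with 1 point per library (circles for mir-60;spe-9, squares for spe-9). For bec-1, lgg-1, lgg-2, vps-34 and epg-5 both Day 7 points lie above all 4 Day 0 points, and the open circle is the hlh-30 value listed at 0.

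The start of autophagy depends on unc-51 (chromosome V, 19996216 to 20004389 on WS220, minus strand), the counterpart of yeast Atg1 and mammalian ULK1. Its level was 40.6 FPKM in the double mutant and 28.6 FPKM in spe-9 at Day 7, against 36.7 and 37.8 FPKM in the double mutant and 27.9 and 30.8 FPKM in spe-9 at Day 0. The Day 7 and Day 0 levels overlapped, and each Day 7 library lay near the Day 0 libraries of its own strain. The log2 change at Day 7 was 0.04 ± 0.08 (SE, 95% confidence interval −0.16 to 0.24, limma adjusted p = 0.654). Its sign depended on the double mutant Day 7 library, without which the change was −0.04. At Day 10 the double mutant library had 29.1 FPKM, within the range of the spe-9 libraries and below the 3 earlier double mutant libraries.

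The kinase complex that makes PI3P contained the gene with the largest change of the 8. bec-1 (chromosome IV, 5661329 to 5664406, minus strand), the counterpart of mammalian Beclin 1, stood at 182 FPKM in the double mutant and 178 FPKM in spe-9 at Day 7. At Day 0 it stood at 72.7 and 79.7 FPKM in the double mutant and at 82.5 and 69.4 FPKM in spe-9. Both Day 7 libraries were more than double any Day 0 library, and the strains had nearly the same level at each day. The log2 change was 1.24 ± 0.09 (SE, 95% confidence interval 0.999 to 1.48), a 2.36-fold rise with a limma adjusted p of 0.000734. The rise was 2.38-fold in the double mutant and 2.34-fold in spe-9. At Day 10 bec-1 had 158.5 FPKM, below both Day 7 libraries and above all Day 0 libraries.

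The file gives bec-1 as 2 RefSeq transcripts. The longer one, NM_068443, had 101 FPKM in the double mutant and 87.0 FPKM in spe-9 at Day 7 against 35.5 to 43.2 FPKM at Day 0. The shorter one, NM_001306755, had 80.6 FPKM in the double mutant and 91.0 FPKM in spe-9 at Day 7 against 32.8 to 44.2 FPKM at Day 0. Both forms were thus higher at Day 7, each with about an even part of the total.

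vps-34 (plus strand of chromosome I) encodes the lipid kinase itself. It had 44.5 FPKM in the double mutant and 39.03 FPKM in spe-9 at Day 7, against 28.7 and 28.2 FPKM in the double mutant and 28.3 and 25.3 FPKM in spe-9 at Day 0. The groups did not overlap, and the log2 change was 0.59 ± 0.07 (SE, 95% confidence interval 0.39 to 0.78, limma adjusted p = 0.00271), or 1.501-fold. At Day 10 it had 34.8 FPKM, between the Day 7 and the Day 0 levels.

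The partition of vps-34 among its 3 transcripts was less steady than its sum. NM_001025783 had 6.61 FPKM in the double mutant Day 0 replicate 2 library and under 0.01 FPKM in the 6 others, while NM_059340, which starts just upstream of it, had 11.7 FPKM in that library and 17.2 to 33.5 FPKM in the others.

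Once PI3P is present, effectors such as ATG-18 (chromosome V, 8629702 to 8631303, minus strand), a WIPI protein, bind the membrane. atg-18 had 167 FPKM in the double mutant and 155 FPKM in spe-9 at Day 7, against 169 and 174 FPKM in the double mutant and 165 and 170.1 FPKM in spe-9 at Day 0. The spe-9 Day 7 library was the lowest of these 6, and the double mutant one lay within the Day 0 range. The log2 change was −0.07 ± 0.05 (SE, 95% confidence interval −0.20 to 0.05, limma adjusted p = 0.235). After quantile normalization it was −0.19 with an adjusted p of 0.0468, and for the transcript with the highest FPKM it was 0.11 with an adjusted p of 0.378. At Day 10 the double mutant library had 122 FPKM, the lowest of the 7.

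The steady sum of atg-18 hid a shift between its 2 transcripts. NM_171492, the shorter form, had 18.5 FPKM in the double mutant and 18.6 FPKM in spe-9 at Day 7, against 46.1 and 33.4 FPKM in the double mutant and 44.1 and 27.1 FPKM in spe-9 at Day 0. It had 5.27 FPKM at Day 10. Its share of the gene's FPKM was 11.1% in the double mutant and 11.95% in spe-9 at Day 7, against 16.0% to 27.2% at Day 0, and 4.33% at Day 10. The 2 forms differ at the downstream end of the coding region, and their shares were not tested. The division of reads between transcripts is an estimate by Cufflinks without an error. The fits of a gene's transcript with the highest FPKM, for atg-18 and the genes below, do not include that uncertainty.

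lgg-1 and lgg-2 encode the 2 Atg8 proteins of C. elegans, ubiquitin-like proteins that are joined to the lipid phosphatidylethanolamine and remain on the autophagosome. Of the 8 genes, lgg-1 (chromosome II, 6347231 to 6347654, minus strand) had the highest FPKM in every library. It had 4401 FPKM in the double mutant and 4366 FPKM in spe-9 at Day 7, against 3374 and 3069 FPKM in the double mutant and 3009.6 and 2585 FPKM in spe-9 at Day 0. Both Day 7 libraries lay above all Day 0 libraries, with a log2 change of 0.55 ± 0.10 (SE, 95% confidence interval 0.29 to 0.81, limma adjusted p = 0.00847), or 1.46-fold. The change was 0.08 with an adjusted p of 0.336 after quantile normalization, and 0.45 with an adjusted p of 0.0760 without the spe-9 Day 7 library. At Day 10 lgg-1 had 5084 FPKM, the highest of the 7 libraries.

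lgg-2 (chromosome IV, 10934743 to 10935804, minus strand) had 1029 FPKM in the double mutant and 1005 FPKM in spe-9 at Day 7. At Day 0 it had 682 and 652 FPKM in the double mutant and 609 and 599.8 FPKM in spe-9. The days did not overlap, and the log2 change was 0.68 ± 0.05 (SE, 95% confidence interval 0.54 to 0.82, limma adjusted p = 0.000847), or 1.60-fold. Like lgg-1, it was highest at Day 10, at 1296 FPKM.

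The higher level of lgg-2 lay in its longer transcript, NM_001268594, with 919 FPKM in the double mutant and 848 FPKM in spe-9 at Day 7, against 479 to 510 FPKM at Day 0. The shorter one, NM_001268595, had 110 FPKM in the double mutant and 157 FPKM in spe-9 at Day 7, against 114 to 172 FPKM at Day 0. The short form thus overlapped between days, while its share of the gene was lower, at 10.7% in the double mutant and 15.7% in spe-9 at Day 7 against 19.0% to 25.2% at Day 0.

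**Figure D3:**
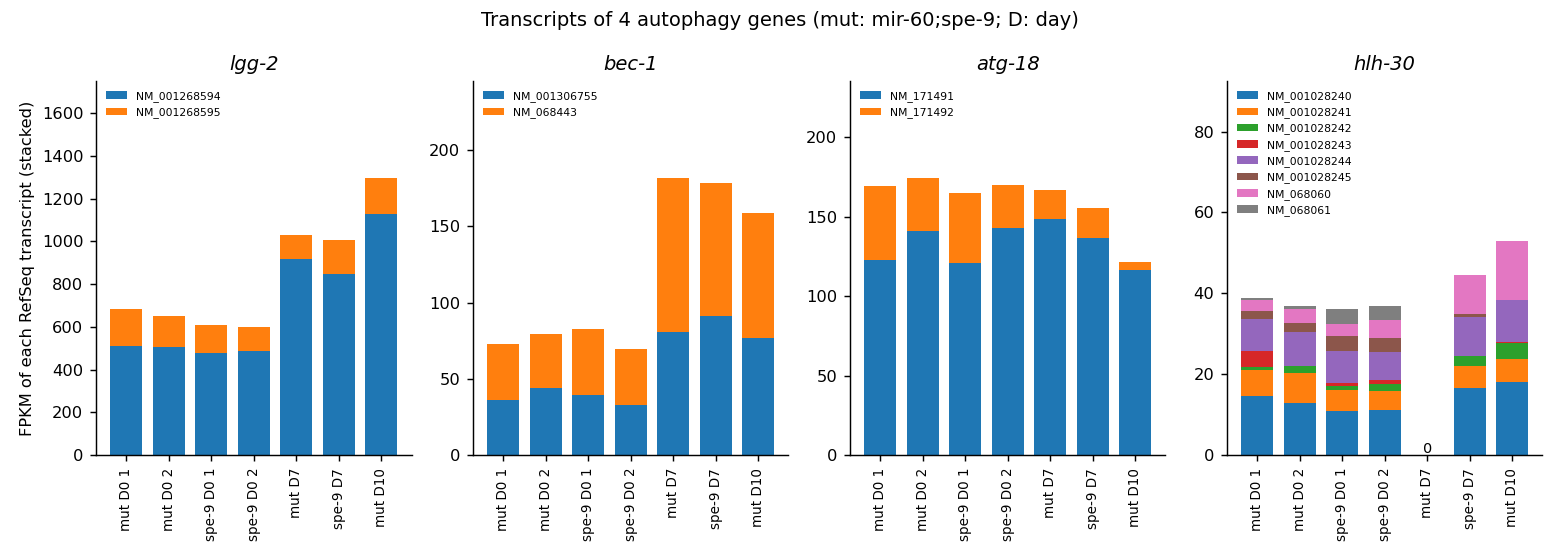
Stacked FPKM of the RefSeq transcripts of lgg-2, bec-1, atg-18 and hlh-30 in each library, as Cufflinks divided the reads. The shorter lgg-2 form keeps 110 to 172 FPKM while the longer one is taller at Day 7 and Day 10, and the shorter atg-18 form shrinks to 5.27 FPKM at Day 10.

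Late in the pathway, epg-5 (chromosome II, 6603409 to 6609324, minus strand) encodes a large protein needed for autophagosomes to mature into degrading compartments. Its measured values were the lowest of the 8 genes in every library, with 9.07 FPKM in the double mutant and 6.74 FPKM in spe-9 at Day 7. At Day 0 it had 6.22 and 6.20 FPKM in the double mutant and 5.07 and 5.72 FPKM in spe-9. The Day 7 libraries lay above the Day 0 libraries, the spe-9 one by a small margin, and the log2 change was 0.41 ± 0.11 (SE, 95% confidence interval 0.12 to 0.69, limma adjusted p = 0.0288). This call was lost in 8 of 19 alternatives, with adjusted p-values between 0.0205 and 0.430 over the 19, and it depended on single libraries. Without the double mutant Day 7 library the log2 change was 0.30 with an adjusted p of 0.145. It was 0.39 without either double mutant Day 0 library or without spe-9 Day 0 replicate 1, with adjusted p-values of 0.0770, 0.0814 and 0.0867. At Day 10 epg-5 was at 5.31 FPKM, inside the Day 0 range.

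For hlh-30 (chromosome IV, 4015753 to 4028080, minus strand), the only transcription factor of the 8, 6 libraries have a value. It had 44.5 FPKM in spe-9 at Day 7, against 38.9 and 36.8 FPKM in the double mutant and 36.1 and 36.9 FPKM in spe-9 at Day 0. The double mutant library was at 52.8 FPKM at Day 10 and is listed at 0 at Day 7, inside the block described above. Both later libraries with a value thus lay above all 4 Day 0 libraries. With the block treated as missing, the log2 change at Day 7 was 0.28 ± 0.09 (SE, 95% confidence interval 0.03 to 0.54), which rests on 1 Day 7 library and did not pass the threshold (limma adjusted p = 0.0584). Over 18 alternatives fitted with the block missing, the adjusted p lay between 0.0239 and 0.306, and 4 of them passed.

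The file lists 8 transcripts of hlh-30 that differ mainly in where they begin. The forms that begin farthest upstream, NM_001028240 and NM_068060, had 16.7 and 9.54 FPKM in spe-9 at Day 7, against 10.8 and 3.07 FPKM in spe-9 replicate 1 and 11.1 and 4.54 FPKM in spe-9 replicate 2 at Day 0. In mir-60;spe-9 at Day 10 they had 17.997 and 14.6 FPKM, against 14.5 and 2.92 FPKM in replicate 1 and 12.9 and 3.51 FPKM in replicate 2 at Day 0. NM_068060 took 21.5% of the gene's FPKM in spe-9 at Day 7 and 27.6% in the double mutant at Day 10, against 7.499% to 12.3% at Day 0. The form with the highest FPKM, NM_001028240, gave a larger log2 change at Day 7 than the sum, 0.58, again from 1 Day 7 library.

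**Figure D4:**
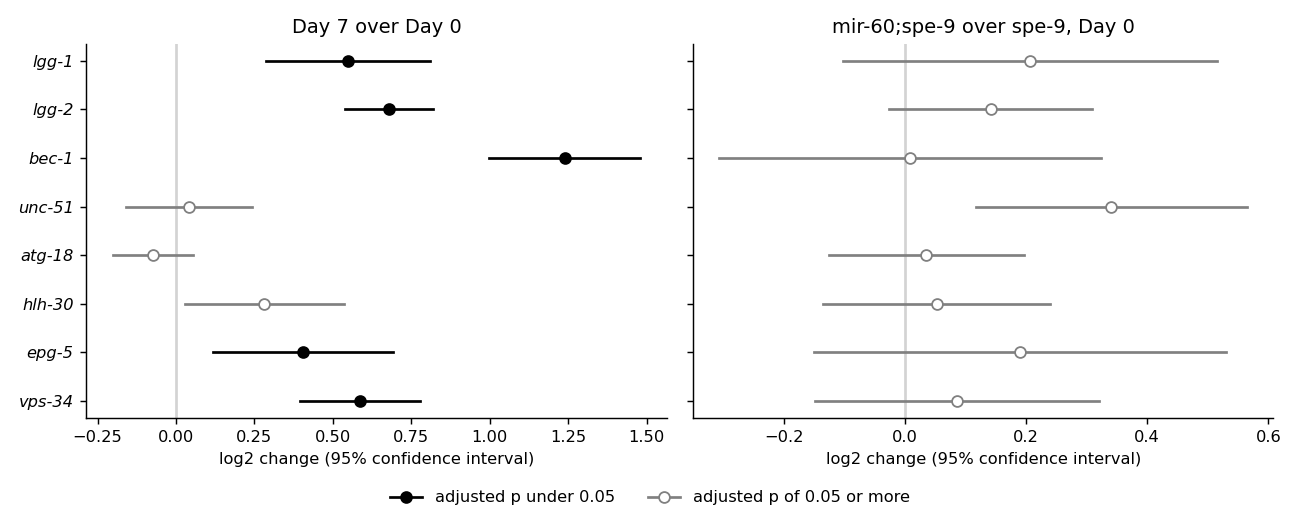
Fitted log2 change of each gene with its 95% confidence interval, for Day 7 over Day 0 (left) and for mir-60;spe-9 over spe-9 at Day 0 (right). Filled points have a limma adjusted p under 0.05: 5 on the left and none on the right. The left value of hlh-30 rests on the spe-9 Day 7 library alone.

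FPKM are scaled for transcript length, so the levels of the genes can be ordered within a library. At Day 0 the order was lgg-1 (2585 to 3374 FPKM), lgg-2 (599.8 to 682 FPKM), atg-18 (165 to 174 FPKM) and bec-1 (69.4 to 82.5 FPKM), with no overlap between neighbours. hlh-30 (36.1 to 38.9 FPKM), unc-51 (27.9 to 37.8 FPKM) and vps-34 (25.3 to 28.7 FPKM) followed with overlapping ranges, and epg-5 was last (5.07 to 6.22 FPKM). At Day 7 bec-1 stood above atg-18 in both strains, with 182 against 167 FPKM in the double mutant and 178 against 155 FPKM in spe-9. That order holds for the sums over transcripts. The longer form of bec-1 alone, NM_068443, lay below that of atg-18, NM_171491. The values were 101 against 148 FPKM in the double mutant and 87.0 against 137 FPKM in spe-9.

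The question of whether loss of mir-60 changes these mRNAs before any paraquat was put to the Day 0 libraries, 2 against 2. No gene of the 8 was called in limma over 13068 genes, of which 0.559% were called higher and 0.184% lower in the double mutant. At an unadjusted p under 0.05 there was 1 of the 8, unc-51, beside 1955 of the 13068 genes tested. That background was itself unsteady: 73 genes were called higher and 24 lower as fitted, 87 and 48 after median centring, 85 and 53 after quantile normalization, and 17 and 12 after scaling to 3 reference genes. Leaving out any 1 of the 4 libraries left 0 calls.

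unc-51 had the largest strain difference of the 8. It averaged 37.3 ± 0.795 FPKM in the double mutant and 29.4 ± 2.06 FPKM in spe-9 at Day 0 (SD, n = 2 each), a log2 difference of 0.34 ± 0.08 (SE, 95% confidence interval 0.12 to 0.56, limma unadjusted p = 0.0134, adjusted p = 0.198). Over 16 alternatives the adjusted p lay between 0.0889 and 0.605. Both double mutant libraries lay above both spe-9 libraries at Day 0, as in 27.1% of all genes. At Day 7 the single libraries again had more in the double mutant, 1.41-fold. The double mutant Day 10 library, at 29.1 FPKM, lay within the range of the spe-9 libraries.

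For the other 7 genes the log2 difference at Day 0 lay between 0.01 for bec-1 and 0.21 for lgg-1, whose interval of −0.10 to 0.52 does not show that the strains were alike. All 8 differences were above 0, with a median of 0.11 beside 0.01 over all genes. With median centring, those of bec-1, atg-18, hlh-30 and vps-34 fell below 0. In 4 of the 8 both double mutant libraries lay above both spe-9 libraries, and in none below. Of all genes, 27.1% lay above and 24.5% below. Some tissue marker sums differed with strain too. The body wall muscle sum was 557 and 537 FPKM in the double mutant against 406 and 417 FPKM in spe-9. The intestine sum was 153 and 143 FPKM in the double mutant against 116 and 108 FPKM in spe-9. In the same order, the sperm sum was 7.08 and 5.75 against 3.24 and 2.57 FPKM. Of its markers, msp-3 and spe-11 were higher in the double mutant, while spe-41 overlapped, at 1.17 and 2.05 against 2.24 and 1.74 FPKM. The neuron sum was 929 and 932 against 895 and 912 FPKM. Most of it was snb-1, at 882 and 890 against 851 and 873 FPKM. rab-3 was also higher in the double mutant, while unc-119 and unc-31 overlapped between strains. The germline and oocyte sums overlapped, at 1374 and 1606 against 1509 and 1772 FPKM, as did the embryo and hypodermis sums. The part of these differences in the strain comparison was not tested.

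At Day 7 the strains are 1 library each, so their ratio has no replicate check. In the paper's lifespan assays on paraquat, median survival fell near Day 7 in spe-9 and near Day 10 in the double mutant. The share of animals already dead may therefore differ between the strains at Day 7, and it cannot be told apart from strain. None of the 7 genes with a value passed 1.5-fold, beside 12.2% of all genes above and 7.48% below spe-9 by that much. The largest ratios of the double mutant over spe-9 were 1.41 for unc-51 and 1.32 for epg-5. The ratio was 1.01 for lgg-1, 1.02 for lgg-2 and 1.02 for bec-1, and all 7 ratios were above 1.

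Day 10 and Day 7 of the double mutant, again single libraries, differed in both directions. lgg-1 and lgg-2 were higher at Day 10, by 1.16-fold and 1.26-fold. The other 5 with a value were lower, at 0.873 times the Day 7 level for bec-1, 0.784 for vps-34, 0.731 for atg-18, 0.722 for unc-51 and 0.607 for epg-5. The median log2 ratio of Day 10 over Day 7 was −0.22 over all genes, and that of bec-1 was −0.20. Only epg-5 passed 1.5-fold. Of all genes, 6.72% were higher and 18.9% lower by that measure. Relative to Day 0 in the same strain, the Day 10 library had 2.08-fold bec-1, 1.94-fold lgg-2, 1.58-fold lgg-1, 1.39-fold hlh-30 and 1.22-fold vps-34, and it had 0.865-fold epg-5, 0.785-fold unc-51 and 0.710-fold atg-18.

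Beyond the 8, a list of 40 other autophagy genes, arranged by step, was read from the same fit. Of the 39 outside the block, 16 were called higher and 7 lower at Day 7 (33.2% and 27.5% of all genes tested), with a median log2 change of 0.09 beside 0.06 over all genes tested. Of these calls, 11 rises and 4 falls exceeded 1.5-fold, as did 25.4% and 18.9% of all genes. The steps hold few genes each, and their counts are given as a description. Both rises and falls were called in 4 of the 8 groups of this list. Among cargo receptors and mitophagy genes, 4 of 6 rose and 2 fell. Among 6 genes for fusion with the lysosome, 5 rose and none fell. Of 9 genes for conjugation of Atg8 proteins, 4 rose and 1 fell, and of 3 further genes for PI3P effectors and ATG-9, 1 rose and 1 fell. Of 2 further genes for the starting complex 1 fell, and of 2 further genes for the PI3P kinase complex none was called. Of the latter, vps-15 had a limma unadjusted p of 0.0324 and an adjusted p of 0.0527. Among all 13639 genes tested, 8952 had an unadjusted p under 0.05. Of 3 other genes for steps of animal autophagy 1 fell, and of 8 regulators 2 rose and 1 fell. The regulator xpo-1, on chromosome V and so outside the block, was listed at 0 in both later double mutant libraries. It had 613 to 656 FPKM at Day 0 and 517 FPKM in spe-9 at Day 7. Whether these 0 values are missing values was not tested. They were kept in the fit, and the gene was not called.

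sqst-1, the p62 counterpart that tethers ubiquitin-marked cargo to Atg8 proteins, had the largest change on the list. It had 798 FPKM in the double mutant and 792 FPKM in spe-9 at Day 7, against 139 and 132 FPKM in the double mutant and 68.8 and 74.0 FPKM in spe-9 at Day 0. Every Day 7 library was above every Day 0 library, and the log2 change was 3.01 ± 0.22 (SE, limma adjusted p = 0.000719). At Day 10 it had 1569.98 FPKM. It was also the only autophagy gene called between strains at Day 0, with a log2 difference of 0.92 ± 0.07 (SE, limma adjusted p = 0.0381) and the higher level in the double mutant. That call was lost in 10 of 16 alternatives, with adjusted p-values up to 0.270, including each of the 4 that left out a library. In those 4 no gene of any kind was called, so they cannot single out sqst-1.

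Among the other receptors, allo-1 (R102.5 in the file), known for the removal of paternal mitochondria, had 742 FPKM in the double mutant and 739 FPKM in spe-9 at Day 7 against 225 to 261 FPKM at Day 0. dct-1, the BNIP3 counterpart of mitophagy, had 199 FPKM in the double mutant and 194 FPKM in spe-9 at Day 7 against 68.7 to 90.9 FPKM at Day 0. pink-1, the kinase that marks damaged mitochondria, was the reverse, with 18.6 FPKM in the double mutant and 22.0 FPKM in spe-9 at Day 7 against 33.5 to 38.5 FPKM at Day 0. The log2 changes were 1.60 ± 0.06 for allo-1, 1.32 ± 0.09 for dct-1 and −0.82 ± 0.06 for pink-1 (SE, limma adjusted p = 0.000206, 0.000583 and 0.000685 in that order).

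In the conjugation step, atg-16.2 had 122 FPKM in the double mutant and 97.8 FPKM in spe-9 at Day 7 against 27.8 to 30.4 FPKM at Day 0, a log2 change of 1.90 ± 0.10 (SE, limma adjusted p = 0.000397). Its paralog atg-16.1 had a log2 change of 0.09 ± 0.09 with an adjusted p of 0.454. atg-10, a conjugating enzyme, rose by 1.25 ± 0.16 (SE, adjusted p = 0.00316). epg-6, a WIPI protein like atg-18, rose by 1.003 ± 0.07 (SE, adjusted p = 0.000684), or 2.00-fold, and its transcript with the highest FPKM by 2.27. Of the fusion genes, the SNARE gene snap-29 rose by 1.06 ± 0.05 (SE, adjusted p = 0.000254) and vps-41, of the tethering complex HOPS, by 0.76 ± 0.10 (SE, adjusted p = 0.00354).

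Of the regulators, let-363, the C. elegans TOR kinase that restrains autophagy, had 19.3 FPKM in the double mutant and 17.4 FPKM in spe-9 at Day 7, against 27.6 to 32.5 FPKM at Day 0. It had 10.9 FPKM in the double mutant Day 10 library. The log2 change at Day 7 was −0.67 ± 0.10 (SE, limma adjusted p = 0.00513), and that of its transcript with the highest FPKM was −1.43 (adjusted p = 0.00104). mxl-3, a repressor that acts against hlh-30, had 201 FPKM in the double mutant and 100.5 FPKM in spe-9 at Day 7, against 62.9 to 81.5 FPKM at Day 0. Its log2 change of 1.03 ± 0.28 (SE, adjusted p = 0.0297) was 0.49 with an adjusted p of 0.111 without the double mutant Day 7 library. The adjusted p was 0.0738 and 0.0781 without replicate 1 or 2 of the double mutant and 0.0742 without replicate 1 of spe-9 at Day 0.

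**Figure D5:**
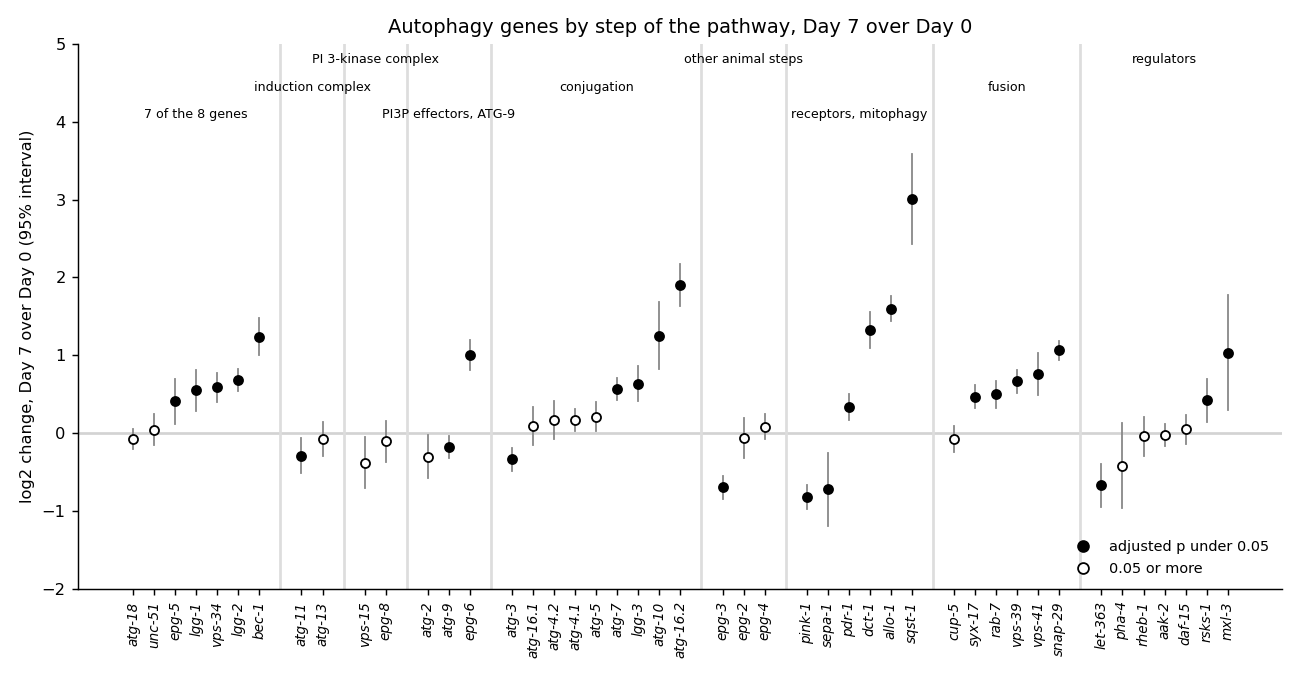
Log2 change at Day 7 over Day 0 with 95% confidence intervals for 7 of the 8 genes and the wider list by step of the pathway, sorted within each step, filled where the limma adjusted p is under 0.05. sqst-1 is highest at 3.01 and pink-1 lowest at −0.82. hlh-30 and epg-9 (missing block) and xpo-1 (listed at 0) are not drawn.

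The genes whose profile lay nearest to that of lgg-1 over the 7 libraries, by Euclidean distance between centred log2 values among 12468 genes of at least 200 bases, were K12H6.12 (0.146), flp-24 (0.171) and C48E7.6 (0.172). flp-24, a neuropeptide gene, had 300.0 FPKM in the double mutant and 306 FPKM in spe-9 at Day 7, against 182 to 259 FPKM at Day 0. For hlh-30, over the 6 libraries in which it was measured, they were ptrn-1 (0.063), rps-26 (0.080) and F58F12.1 (0.091) among 12469 genes. The ribosomal protein gene rps-26 had 5873 FPKM in spe-9 at Day 7 and 7081 FPKM in the double mutant at Day 10, against 4999.95 to 5120.4 FPKM at Day 0. These distances describe a handful of libraries that differ mainly by day.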

How the data were processed

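The authors prepared stranded libraries of polyadenylated RNA, merged the 2 runs of each library (14 samples, 7 libraries), mapped the 100-base single-end reads onto genome release WS220 (TopHat 2.1.0, Bowtie 2.1.0), and estimated abundance in Cufflinks 2.2.1. The deposited values are FPKM of 49823 RefSeq transcripts, scaled by the authors for length and mapped reads. Lengths are coding lengths (97.8% of mRNA entries are multiples of 3). Printed starts count from 0 and were raised by 1. The labels give each library's strain and day.

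FPKM were summed per symbol, and log2(FPKM + 0.5) was fitted with limma 3.58.1 in R 4.3.3 (lmFit, eBayes with trend), keeping genes whose mean FPKM was 1 or more. The Day 7 fit had terms for strain and day (3 residual degrees of freedom), the Day 0 fit strain alone (2). Values are two-sided, with Benjamini-Hochberg adjustment over all genes tested. The scripts were tested on simulated data. Alternatives covered pseudocounts, filters, scaling, transcript choice, trend, replicate block and left-out libraries. An exact permutation test could not go below 0.067 for 2 against 4 libraries or 0.333 for 2 against 2. The 8 genes were all described; of the wider list, the 10 largest changes called over 1.5-fold at Day 7 were named, with sqst-1, mxl-3 and let-363, and by exception atg-16.1, vps-15, xpo-1 and epg-9, chosen after their values were seen. Genes, lists and tests were chosen with earlier results of these data known.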

Additional observations from a re-analysis of the deposited data

Results flagged for a closer look

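Among the wider autophagy genes, 2 had a Day 7 library on opposite sides of its own strain's Day 0 libraries. epg-2, which links protein aggregates to LGG-1, had 124.4 FPKM at Day 7 against 151 and 138 FPKM at Day 0 in mir-60;spe-9, and 134.7 FPKM at Day 7 against 134.0 and 121 FPKM at Day 0 in spe-9. daf-15, the raptor counterpart, had 35.7 FPKM at Day 7 against 31.6 and 33.6 FPKM at Day 0 in mir-60;spe-9, and 33.0 FPKM at Day 7 against 33.2 and 34.7 FPKM at Day 0 in spe-9. The difference between strains was not tested in either gene. None of the 7 genes with a value in both strains at Day 7 met this description. hlh-30 could not be judged, since it has no Day 7 value in the double mutant.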

How the results depend on the processing

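At Day 7, the count of called genes among the 7 outside the block was 5, between 4 and 5 in all alternatives that kept the p threshold alone (4 to 5 when 1 library was left out), and 3 when a change over 1.5-fold was also asked. The genes behind the 4 differed: epg-5 was missing in most, lgg-1 without the spe-9 Day 7 library, and with quantile normalization 3 were higher (bec-1, lgg-2 and vps-34) and atg-18 was called lower (−0.19, limma adjusted p = 0.0468). bec-1, lgg-2 and vps-34 kept their call in all 20 alternatives. The Day 7 change of unc-51 was −0.084 with Day 7 and Day 10 together and between −0.038 and 0.121 with 1 library left out (the lowest without the mir-60;spe-9 Day 7 library), and that of atg-18 was 0.11 for the transcript with the highest FPKM. At Day 0 the count was 0 in every alternative. There, median centring turned bec-1 to −0.080, atg-18 to −0.053, hlh-30 to −0.037 and vps-34 to −0.0025, the transcript with the highest FPKM turned bec-1 to −0.15 and vps-34 to −0.26, quantile normalization turned epg-5 to −0.064, and leaving out libraries put bec-1 between −0.11 and 0.13. The cause of these turns was not tested. The fit of strain over Day 0 and Day 7 was not read for hlh-30, and the scaling to 3 reference genes could not be run at Day 7, since ama-1 lies in the block; cdc-42 and pmp-3 alone, and the block as missing, were chosen after seeing the data. With the replicate block, 286 genes were called higher and 68 lower at Day 0 instead of 73 and 24. The labels give only shared numbers, and same-numbered libraries deviated together with a correlation of 0.076, or 0.347 when genes shorter than 200 bases were dropped. The mean FPKM of at least 10 gave 2878 higher calls among 8543 genes tested at Day 7, against 4522 among 13639. Genes higher at Day 0 numbered 22 without a filter, 168 without those shorter than 200 bases, and 3 (with 2 lower) over Day 0 and Day 7. With 1 library left out, its partner was assumed to vary like the other groups.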
